A study of Mus musculus with 2 samples.

Results

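The platelet-derived growth factor (PDGF) family was examined in the newborn mouse bladder. It comprised 6 genes, namely the ligands Pdgfa, Pdgfb, Pdgfc and Pdgfd and the receptors Pdgfra and Pdgfrb, which were chosen by name and found by gene identifier among 43346 mouse genes in the files. All 6 were found. Total RNA had been sequenced from the whole bladders of 2 pups of strain B6NCrl on postnatal day 0, each pup giving 1 library from 10 ng of RNA. The pups were littermates born to 1 dam, as separate animals, and the labels name no treatment and no engineered allele for them. They form 1 group, so levels and the spread between 2 animals were described and no test between groups was possible.

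PDGFs are dimeric growth factors that act through a pair of receptor tyrosine kinases on cells of the connective tissue and the vessel wall. The A and B chains are cut by furin-like proteases before they leave the cell, whereas the C and D chains are secreted with a CUB domain that has to be removed outside the cell before they bind. The alpha receptor, made from Pdgfra, binds A, B and C chains, and the beta receptor, made from Pdgfrb, binds mainly B and D chains. In hollow organs PDGF-A is classically a signal from epithelium to Pdgfra-positive mesenchyme, and PDGF-B a signal from endothelium to Pdgfrb-positive mural cells of small vessels.

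The libraries held 43653536 and 32564256 expected counts of mouse genes in pup 1 and pup 2. Expected counts are reads per gene after multi-mapped reads have been divided by the estimator, and TPM, a relative transcript abundance, is that quantity per effective length scaled to a fixed library total, which allows genes to be set side by side. Markers of cell types were looked up. All 7 urothelial, all 7 smooth muscle and all 8 fibroblast genes listed reached 1 TPM in each library. All 7 mural and all 7 endothelial genes did so too, against 58.5% of protein-coding genes. All 4 liver markers listed also did, so reaching 1 TPM does not identify the tissue. Median levels were 739 TPM for the urothelial, 2946 TPM for the smooth muscle and 731 TPM for the fibroblast list, against 10.2 TPM for the liver list. The libraries were not alike in blood and immune genes. Summed over 9 macrophage markers TPM was 554 in pup 1 and 1842 in pup 2, and over 5 erythroid markers 21719 and 59101. Lyz2 was the largest part of the macrophage sum, at 216 TPM in pup 1 and 1106 TPM in pup 2. In bulk RNA, fewer cells of a type and less RNA per cell cannot be told apart.

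Each of the 6 PDGF genes reached 1 TPM, the detection threshold, in both pups, against 58.5% of the 21474 protein-coding genes. Their levels spanned a wide range. Pdgfa stood highest, followed by Pdgfd, then by Pdgfc, Pdgfra and Pdgfrb at nearly the same level, with Pdgfb far below. The ranges of the 2 pups overlapped between Pdgfc and Pdgfra and between Pdgfra and Pdgfrb, so the order of these 3 genes is not resolved. They did not overlap at the other steps of the order. The same order did not hold for expected counts, where Pdgfra, with the longest transcripts, had 1762 and 1609 counts in pup 1 and pup 2 and Pdgfc 911 and 649.

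**Figure D1:**
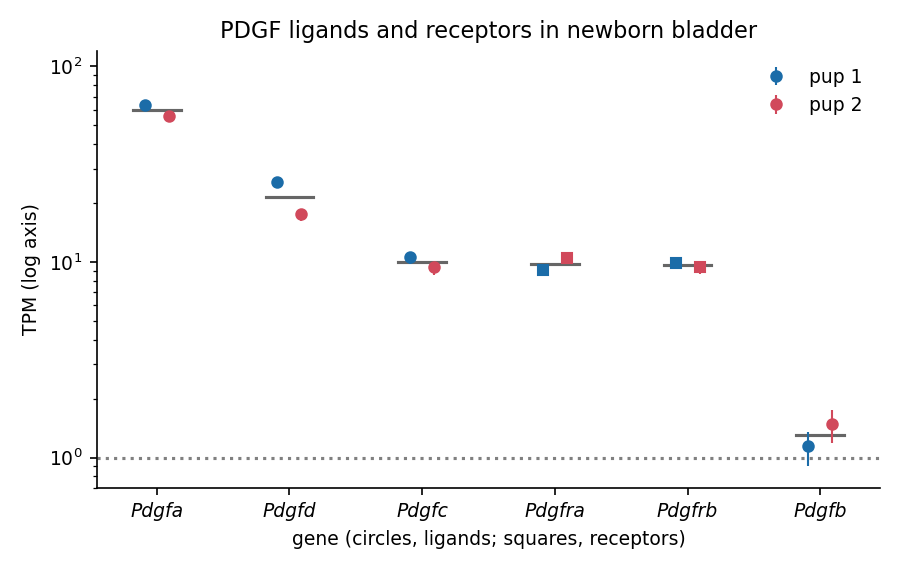
TPM (log axis) of each PDGF gene in pup 1 and pup 2. Grey bars are means over the 2 pups, vertical lines are the credibility bounds deposited by the authors, whose level is not stated, and the dotted line is 1 TPM. Pdgfa lies highest at 63.5 and 55.9 TPM and Pdgfb lowest at 1.14 and 1.48 TPM.

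Pdgfa encodes the A chain, the ligand that acts through the alpha receptor alone when it forms a homodimer. The gene lies on the minus strand at chr5:138976014-138997370 (mm10). It reached 63.5 TPM in pup 1 and 55.9 TPM in pup 2, a mean of 59.7 ± 5.38 TPM (SD, n = 2). Both pups were therefore close together, and 17.5% of the 12568 protein-coding genes detected in both pups had a higher mean. The estimate rested on 2815 and 1952 expected counts, and the posterior SD of the gene's count was 2.92 and 2.46, so few of its reads were shared with other genes.

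Most Pdgfa RNA was assigned to forms that skip exon 6. This exon decides between a long and a short A chain, because it carries its own stop codon and a run of basic residues, known as the retention motif, that holds the growth factor on cell surfaces and matrix. The files quantified 7 Pdgfa transcripts. The form with exon 6, Pdgfa-201, was assigned 7.13% of the gene's TPM in pup 1 and 10.5% in pup 2, or 4.52 and 5.86 TPM. Coding forms without exon 6 were assigned 85.9% and 82.5%. They were mainly Pdgfa-204 at 44.2% and 44.9% and Pdgfa-202 at 41.2% and 37.6%, which encode the same protein and differ in their first exon and in the length of the 3′ untranslated region. The coding ends of both forms are shown because they hold the difference in the protein. Lower case marks the last 30 bases of the shared exon before them, and capitals mark the exon 6 segment at chr5:138978635-138978690 and the last-exon segment at chr5:138977217-138977227, both on the minus strand (GENCODE M21 transcripts) and both ending in their stop codon.
Pdgfa-201 with exon 6: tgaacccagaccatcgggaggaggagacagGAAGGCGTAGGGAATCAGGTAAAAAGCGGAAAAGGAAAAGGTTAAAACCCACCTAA
Pdgfa-202 without exon 6: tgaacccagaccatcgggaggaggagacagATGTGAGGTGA
The exon 6 segment holds 17 whole codons before its stop, of which 11 are codons for lysine or arginine, and the skipped form adds 2 whole codons before its stop. The counts behind Pdgfa-201 were 195 and 202.3, with posterior SDs of 36.7 and 34.8, so reads were assigned to the form in both libraries but its share is known only roughly. The share does not rest on exon 6 alone, since Pdgfa-202 has 586 bases that Pdgfa-201 lacks, and Pdgfa-204 and Pdgfa-201 have 354 and 610 bases not found in the other, all but exon 6 at the 5′ and 3′ ends. The deposited credibility bounds of its TPM were 2.89 to 6.33 in pup 1 and 3.89 to 8.07 in pup 2, and these overlap. The remaining 7.02% and 6.98% of Pdgfa were assigned to transcripts annotated without a coding sequence.

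Pdgfc encodes the C chain, a CUB-domain ligand of the alpha receptor, on the plus strand at chr3:81036416-81214040. Its gene level was 10.6 TPM in pup 1 and 9.45 TPM in pup 2, a mean of 10.0 ± 0.841 TPM (SD, n = 2). It was thus lower than Pdgfa in each pup. In both pups the leading transcript was one with an extra exon of 59 bases between the first coding exon and the next. Pdgfc-202, annotated as a target of nonsense-mediated decay, the process that degrades RNAs with an early stop codon, was assigned 76.6% and 77.5% of the gene's TPM in pup 1 and pup 2. The full-length coding form Pdgfc-201 was assigned 21.2% and 22.0%, which is 2.26 and 2.08 TPM. A decay-annotated transcript leading in both pups was seen in 1.80% of 7062 protein-coding genes with several transcripts and at least 5 TPM. The coding forms are shown because the extra exon ends the reading frame. Lower case marks the last 30 bases of the first coding exon, and capitals mark the extra exon up to its stop codon at chr3:81131018-81131073 or, where it is skipped, the first 30 bases of the next exon at chr3:81141405-81141434.
Pdgfc-202 with the extra exon: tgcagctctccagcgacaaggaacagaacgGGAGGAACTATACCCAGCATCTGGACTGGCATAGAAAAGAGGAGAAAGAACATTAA
Pdgfc-201 without it: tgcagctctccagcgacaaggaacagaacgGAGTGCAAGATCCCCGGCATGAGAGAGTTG
With the extra exon the annotated coding sequence is 174 bases long including its TAA stop, against 1038 bases in Pdgfc-201. Counts were 663 and 476 for Pdgfc-202 and 231 and 170 for Pdgfc-201, with posterior SDs of 29.5 and 23.2 for the former and 29.3 and 23.1 for the latter. The split does not rest on the extra exon alone: Pdgfc-201 also has 762 bases that Pdgfc-202 lacks, nearly all at the 5′ end of the first exon, and how far coverage of that stretch moved the split was not tested. Counting protein-coding transcripts alone lowered the mean of Pdgfc from 10.0 to 2.17 TPM. The decay class is the annotation's, and neither breakdown nor translation of the RNA was measured.

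Pdgfd encodes the D chain, a CUB-domain ligand that acts mainly through the beta receptor, on the plus strand at chr9:6168584-6378850. It was the second most abundant ligand, at 25.6 TPM in pup 1 and 17.5 TPM in pup 2, a mean of 21.6 ± 5.71 TPM (SD, n = 2). Pup 1 was the higher, and the SD was the largest of the 6 genes. The counts were 2110 and 1164. Pdgfd had 2 transcripts in the files. Pdgfd-201 was assigned 84.3% and 86.0% of the gene, and Pdgfd-202 15.75% and 13.97%. Their coding sequences differ by 18 bases at the start of exon 2, at chr9:6288472-6288489, which keep the reading frame. These bases are in capitals, between 30 bases of the exon before and 30 bases of the exon that follows in lower case.
Pdgfd-202 with the 18 bases: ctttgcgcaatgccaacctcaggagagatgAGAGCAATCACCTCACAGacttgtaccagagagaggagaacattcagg
Pdgfd-201 without them: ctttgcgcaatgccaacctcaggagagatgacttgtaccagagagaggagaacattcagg
Posterior SDs were 24.1 and 17.4 for counts of 205 and 99.3 of Pdgfd-202. In the later annotation the pair also differs by 1354 bases found in Pdgfd-201 alone, most of them at the 3′ end, so this split too rests on more than the shown bases.

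**Figure D2:**
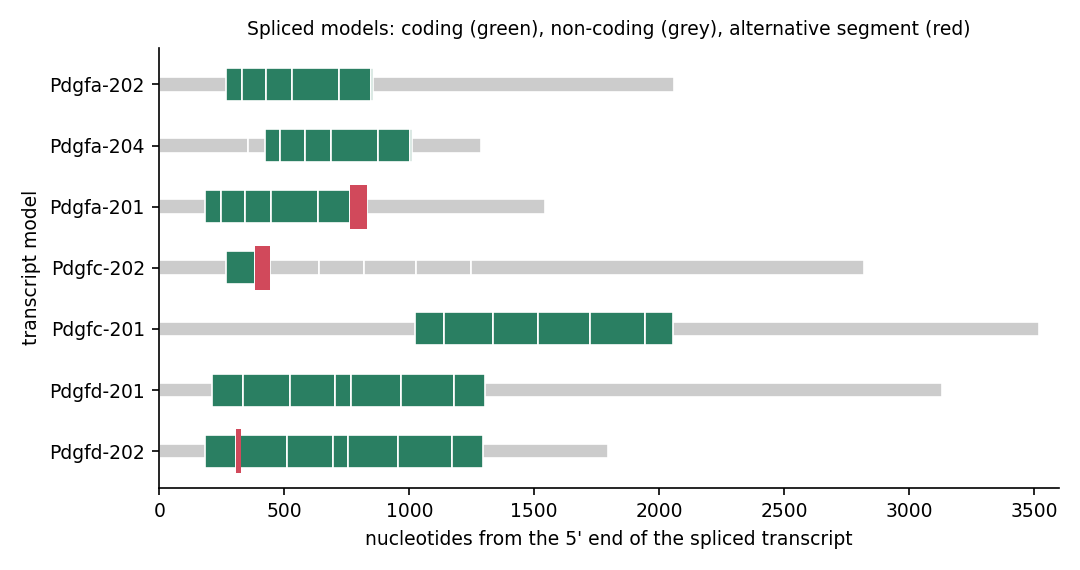
Spliced models of the leading transcripts of Pdgfa, Pdgfc and Pdgfd in GENCODE M21, drawn to scale in nucleotides from the 5′ end. Green is coding, grey non-coding and red the alternative segment, namely exon 6 in Pdgfa-201, the extra exon of 59 bases in Pdgfc-202 and the 18 bases in Pdgfd-202, and white lines are exon junctions.

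Pdgfb encodes the B chain, the ligand that binds both receptors and recruits pericytes to growing vessels. The gene is on the minus strand at chr15:79995874-80014977. It was at 1.14 TPM in pup 1 and 1.48 TPM in pup 2, a mean of 1.31 ± 0.240 TPM (SD, n = 2), on 96 and 100 counts. It lay just above the detection threshold, and the lower credibility bound of pup 1 was 0.903 TPM. Of the protein-coding genes detected in both pups, 98.5% had a higher mean. The files held 1 Pdgfb transcript. The 7 endothelial markers listed, from a cell type known to make PDGF-B, had a median of 25.9 TPM.

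The receptors were present at nearly equal levels. Pdgfra, which encodes the alpha receptor and marks mesenchymal progenitors and fibroblasts of many organs, lies at chr5:75152292-75198215 on the plus strand. It was at 9.12 TPM in pup 1 and 10.4 TPM in pup 2, a mean of 9.77 ± 0.919 TPM (SD, n = 2). Pup 2 was the higher. In both pups Pdgfra-201 held most of the gene, at 94.1% and 95.2%, over Pdgfra-202, which has the same coding length and another first exon. The posterior SD of the split was 83.4 and 93.0 counts, as large as or close to the 105 and 77.5 counts of Pdgfra-202, so presence of the latter is not established. The shorter Pdgfra transcripts of the later annotation were not quantified in the files and were not analysed here.

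Pdgfrb encodes the beta receptor, a classical marker of pericytes and other mural cells, and lies on the plus strand of chromosome 18 from 61045150 to 61085061. It was at 9.89 TPM in pup 1 and 9.39 TPM in pup 2, a mean of 9.64 ± 0.354 TPM (SD, n = 2), the smallest relative spread of the family. All its counts, 1572 and 1192, were assigned to Pdgfrb-201. Pdgfrb-202 was listed at 0 counts with posterior SDs of 26.8 and 25.2. The ratio of Pdgfra to Pdgfrb in TPM was 0.922 in pup 1 and 1.11 in pup 2, so the receptor that led changed between the pups. The 7 mural markers listed had a median of 17.8 TPM, among them Ndufa4l2 at 324 and 225 TPM, Mcam at 84.3 and 76.0 TPM, Rgs5 at 32.8 and 28.0 TPM and Cspg4 at 18.4 and 17.2 TPM.

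By TPM the ligand RNAs outweighed the receptor RNAs. The 4 ligands summed to 101 TPM in pup 1 and 84.3 TPM in pup 2, against 19.0 and 19.8 TPM for the receptors, a ratio of 5.30 and 4.26. Pdgfa made up 62.9% and 66.3% of the ligand sum, Pdgfd 25.4% and 20.8%, Pdgfc 10.6% and 11.2% and Pdgfb 1.13% and 1.76%. Pdgfa and Pdgfd thus supplied most ligand RNA in each pup. Among the ligands with a strong affinity for the beta receptor, Pdgfd exceeded Pdgfb 22.4-fold in pup 1 and 11.8-fold in pup 2. With protein-coding transcripts alone the Pdgfc share fell to a mean of 2.71%. These are RNA levels of a whole organ, and protein and the cells of origin were not measured.

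The PDGF genes were then compared between the littermates. For this comparison rounded expected counts were scaled by TMM, a factor that assumes most genes are unchanged, and each gene's log2 ratio (pup 2 over pup 1, so that negative values are lower in pup 2) is given with an exact Clopper-Pearson interval at 95%, which covers counting error and not variation between animals. Of the 5 PDGF genes whose counts averaged 100 or more, none was 2-fold apart, against 1.99% of 12734 such genes, and none was 1.5-fold apart, against 4.91%. Both counts are near those shares and do not set the family apart from other genes. Counting intervals left out equal levels in 3 of these 5 genes, Pdgfa, Pdgfd and Pdgfra, against 52.1% of all such genes, a share near theirs. With 1 library per pup no p-value can be given.

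Pdgfd had the largest difference among the 5, with 2110 counts in pup 1 and 1164 in pup 2. Its log2 ratio was -0.44 (interval -0.55 to -0.34), and 8.73% of the genes past that count minimum were at least as far apart in either direction. In the direction of Pdgfd alone, 3.35% of those genes were lower in pup 2 by at least as much. Pdgfd lay inside the central 95% of those genes, whose ratios ran from -0.49 to 0.70. Pdgfra was higher in pup 2, with a log2 ratio of 0.29 (interval 0.19 to 0.38), and 20.3% of genes were at least as far apart. Pdgfa was at -0.11 (interval -0.20 to -0.03), Pdgfc at -0.07 (interval -0.22 to 0.07) and Pdgfrb at 0.02 (interval -0.09 to 0.13). Pdgfb, under the count minimum with 96 and 100 counts, was at 0.48 with a wide interval of 0.06 to 0.90. Beside these ratios, all 9 macrophage markers and all 5 erythroid markers were higher in pup 2, the 7 proliferation genes listed were all lower in pup 2 with a median log2 ratio of -0.52, and the 8 fibroblast markers were all lower with a median of -0.12. Of the 7 endothelial markers 5 were higher and 2 lower in pup 2, with a median of 0.24. The 4 liver markers were all lower in pup 2, with a median of -2.12. All 4 were past 2-fold, against 1.99% of genes past the count minimum. The 7 smooth muscle markers had a median of -0.05 and the 7 mural markers -0.04. Over all genes past the count minimum the median was -0.01. The part of these differences in the PDGF ratios was not tested.

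**Figure D3:**
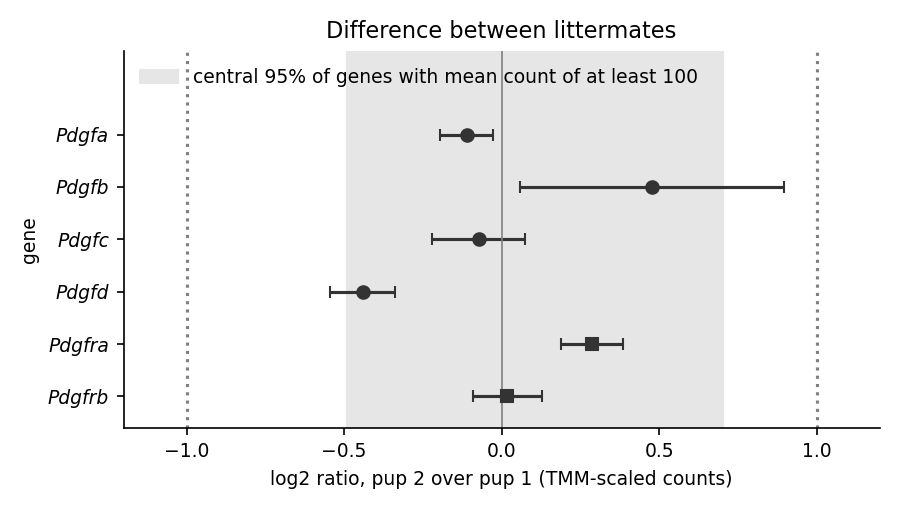
Log2 ratio of pup 2 over pup 1 for each PDGF gene (circles, ligands; squares, receptors) from TMM-scaled counts, with exact 95% counting intervals. The grey band is the central 95% of 12734 genes and the dotted lines mark 2-fold. All 6 points lie inside the band, from -0.44 for Pdgfd to 0.48 for Pdgfb.

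Overlapping genes were checked because the strand setting of the counting is not given in the sources used here. An antisense gene, 6330403L08Rik, overlaps Pdgfa and was assigned 290.9 and 200.8 counts. Over Pdgfc the antisense gene Gm16000 had 1.11 and 1.05 counts, and within Pdgfd the gene Ddi1 had 3 counts in each pup. If counting ignored strand, reads wholly inside the overlap of Pdgfa and its antisense partner cannot be told apart by position. The posterior SD of the Pdgfa gene count, 2.92 in pup 1 and 2.46 in pup 2, was small beside its 2815 and 1952 counts. How far the overlap touched single Pdgfa transcripts was not tested. The microRNA genes inside Pdgfb and Pdgfra were listed at 0 counts, and RNA of that length is under the size range of the libraries.

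The ligands are activated by proteases of several families. Of 8 protease genes listed 6 passed the detection threshold in each pup, against 58.5% of protein-coding genes, and the median of the 8 was 8.58 TPM. Plat, which encodes tissue plasminogen activator, the protease known to release active PDGF-C, was highest at 24.1 TPM in pup 1 and 26.7 TPM in pup 2. St14, which encodes matriptase, was at 20.2 and 20.7 TPM. Plau, the urokinase gene, whose product can cleave PDGF-D, was at 8.75 and 7.25 TPM. Furin, the main proprotein convertase for A and B chains, was at 13.0 and 13.7 TPM, and its relative Pcsk7 at 9.54 and 8.77 TPM. Pcsk6 stayed under the threshold at 0.84 and 0.82 TPM. Plg, the liver-made plasminogen gene, was also under it, at 0.68 and 0.11 TPM on 54 and 7 counts. The liver markers Alb, Afp, Apoa1 and Apoa2 were lower in pup 2 too, summing to 64.0 and 13.9 TPM.

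Several proteins bind the ligands or associate with the receptors. All 5 such genes listed were detected, against 58.5% of protein-coding genes, at levels that differed widely. Sparc, a matrix glycoprotein that binds PDGF-B, was at 4283 TPM in pup 1 and 4054 TPM in pup 2. Lrp1, a receptor that associates with the beta receptor, was at 59.2 and 56.9 TPM, and Nrp1, a neuropilin, at 17.3 and 16.4 TPM. Thrombospondin 1, Thbs1, was at 63.1 and 110 TPM. Cd44, the hyaluronan receptor, was the member of the list that passed 2-fold, at 13.9 and 28.3 TPM, which is 2.03-fold higher in pup 2 after TMM scaling. Of all genes past the count minimum 1.99% were 2-fold apart. The macrophage markers moved in the same direction as Cd44, with 9 of 9 higher in pup 2 and 6 of 9 past 2-fold. Their part in the Cd44 value was not tested.

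Adaptors and effectors carry the signal from the activated receptors into the cell. Of 19 such genes 18 passed the detection threshold, against 58.5% of protein-coding genes, and the list's median level was 17.9 TPM. The adaptor Crk was at 88.5 and 75.3 TPM, Shc1 at 68.4 and 65.4 TPM and Grb2 at 43.4 and 46.1 TPM. Nck1 followed at 31.3 and 29.7 TPM. Pik3cb, a catalytic subunit of phosphoinositide 3-kinase, was under the threshold at 0.83 and 0.73 TPM, while Pik3ca was at 6.22 and 5.76 TPM. The list's median log2 ratio was 0.00, against -0.01 over all genes past the count minimum, with 10 members higher and 9 lower in pup 2. None was 2-fold apart, where 1.99% of all genes past the count minimum were, so the count does not set the list apart. All 9 genes that damp receptor signalling were detected, against 58.5% of protein-coding genes, and their median was 16.9 TPM. They were led by the adaptor Grb10 at 111 and 90.0 TPM, the phosphatase genes Ptpn1 at 36.7 and 33.0 TPM and Acp1 at 34.3 and 35.7 TPM, and Ptpn2 at 27.7 and 27.2 TPM. The ubiquitin ligase gene Cbl was at 6.50 and 5.96 TPM. None of these 9 was 2-fold apart, which is likewise near the 1.99% of all genes.

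Of 5 genes known as early responders to PDGF in cultured fibroblasts, 4 were detected in both pups, against 58.5% of protein-coding genes. Myc was at 43.6 and 42.7 TPM, Ccl2 at 20.7 and 46.2 TPM, Fos at 19.2 and 28.8 TPM and Egr1 at 9.89 and 11.6 TPM. Ccl2, a monocyte chemokine, was 2.40-fold higher in pup 2 and passed 2-fold, where 1.99% of all genes past the count minimum were 2-fold apart. Cxcl1, a neutrophil chemokine, had 0.90 TPM on 23 counts in pup 1 and 3.08 TPM on 63 counts in pup 2. The 4 past the count minimum were all higher in pup 2, with a median log2 ratio of 0.49, against -0.01 over all genes past that minimum. These genes answer to many other signals, and macrophage and neutrophil markers were higher in pup 2 as well. The 5 neutrophil markers summed to 35.9 TPM in pup 1 and 377 TPM in pup 2. Most of that sum was S100a8, at 24.6 and 263 TPM, and S100a9, at 8.90 and 106 TPM. Of the 5 neutrophil markers 3 reached 1 TPM in both pups. The part of the macrophage and neutrophil markers in the difference was not tested.

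**Figure D4:**
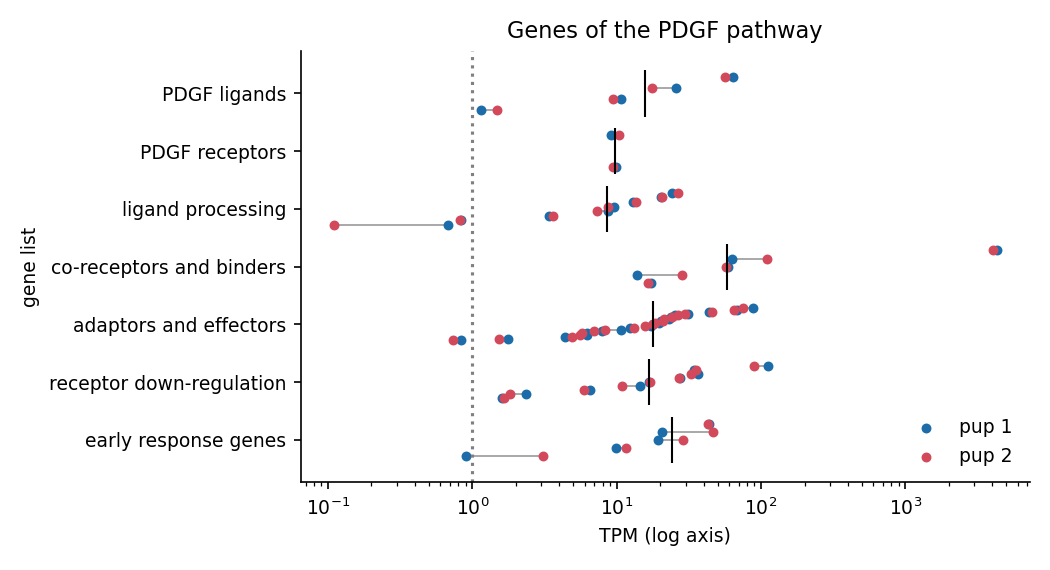
TPM (log axis) of the PDGF genes and of 5 gene lists of the pathway, each gene as a pair of points for pup 1 and pup 2 joined by a line. Black bars are list medians of mean TPM and the dotted line is 1 TPM. Most pairs lie close together, and Plg, Cxcl1, Ccl2 and Cd44 are spread furthest.

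Markers of further cell types were looked up, among them cells known to hold PDGF or its receptors. Platelets, the source from which PDGF was named, were represented by Pf4 at 299 and 396 TPM, Ppbp at 8.62 and 7.93 TPM, Gp1bb at 4.86 and 7.15 TPM and Itga2b at 3.60 and 8.33 TPM. Itga2b passed 2-fold. Gp1ba and Gp6 were under 1 TPM in each pup. Gp9 had 0.89 TPM in pup 1 and 9.10 TPM in pup 2. Pf4 is also made by macrophages. Oligodendrocyte precursors, which are defined by Pdgfra in the nervous system, were near 0 by their defining genes: Olig2 was listed at 0 in both pups and Olig1 at 0.02 and 0 TPM. The listed interstitial markers Ano1, Gjc1, Etv1 and Kit were all detected, against 58.5% of protein-coding genes. In that order they were at 33.5 and 36.9, 27.3 and 21.5, 4.02 and 4.95, and 2.56 and 2.75 TPM. Whether the cells with these RNAs also held PDGF or its receptors was not measured.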

How the data were processed

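The authors deposited a gene and a transcript table for each pup in the layout of the RSEM estimator, on mm10 with GENCODE M4 per the text listings supplied with the samples. The aligner, the RSEM version and whether counting used strand were not given in the sources used here. Expected counts, as deposited, are reads assigned by estimation and carry no normalisation. The deposited TPM is per effective length over all entries, the deposited FPKM was not used, and the deposited percent per transcript is its part of the gene's TPM. Credibility bounds and posterior SDs are the authors' estimator output.

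Genes were matched by identifier, version removed, to GENCODE M21 (42462 of 43346), on the same assembly. Of the 17 transcripts of the PDGF genes, 13 have the same length in both annotations, and the sequences and transcript classes are those of M21. TMM factors used genes with a mean rounded count of at least 10 (edgeR 4.0.16, R 4.3.3). The 2-fold call needed a mean count of at least 100. TPM ratios run lower than TMM ratios by a median of 0.09 on the log2 scale. With 1 library per animal no test was fitted. The ratio step was tested on simulated counts. Python 3.11.15 with pandas 2.3.3, numpy 2.4.6 and scipy 1.17.1 was used. Alternatives were DESeq2 1.42.0 size factors, total counts, spike-ins, posterior means, coding transcripts alone and other thresholds.

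The members and gene lists were chosen with earlier results of these data known. Named are all 6 PDGF genes, up to 4 genes per list by mean TPM, list genes under 1 TPM in both pups or 2-fold apart, and transcripts with at least 10% of a gene. Others, among them Plau, Nrp1, Pik3ca, Cbl, Cxcl1, Vegfa, Gp9, Pdgfra-202 and Pdgfrb-202, the overlapping genes and the comparison of leading transcripts were added after their values were seen. Some listed items are not reported here.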

Additional observations from a re-analysis of the deposited data

How the results depend on the processing

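Detection of all 6 genes held under posterior mean TPM, rescaled TPM, coding transcripts alone (added after seeing the data), either pup alone and a threshold of 0.5 TPM, and at 5 TPM all but Pdgfb remained, 5 of 6. The count of genes 2-fold apart stayed at 0 under all 6 alternatives tried. Of 42 alternative log2 ratios, 7 per gene, 40 kept their sign and 40 lay inside the counting interval. Pdgfrb, near 0, ran from -0.07 by TPM to 0.02, and Pdgfd from -0.55 by TPM to -0.44. Pdgfra fell to 0.17 with 1 added to TPM. The spike-in scale rests on 363 and 275 counts. Protein-coding transcripts alone moved the Pdgfa share of ligand TPM from 64.6% to 69.1%, the Pdgfd share from 23.1% to 26.5% and the Pdgfc share from 10.9% to 2.71%, because the decay transcripts of Pdgfc drop out. The posterior mean percent of Pdgfc-202 was 76.4 against 77.0. TPM rescaled to nuclear protein-coding genes without globins was 1.21 and 1.28 times the deposited TPM in pup 1 and pup 2. Leaving out a pup gives the other pup's value, printed throughout, and left no pup ratio. No paired analysis was possible because both libraries belong to 1 group. Depth limits Pdgfb, the minor transcripts and the genes named with under 100 counts.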

Other observations

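The VEGF ligands share the cystine-knot fold of the PDGFs. All 5 listed were detected in both pups, against 58.5% of protein-coding genes. Vegfb was at 34.0 TPM in pup 1 and 30.01 TPM in pup 2, and Vegfd at 21.5 and 19.8 TPM. The median of the 5 was 5.73 TPM, against 15.8 TPM for the 4 PDGF ligands. Pgf was at 5.81 and 5.64 TPM and Vegfc at 5.29 and 5.61 TPM. Vegfa, the main endothelial growth factor of most organs, was the lowest at 2.09 and 1.82 TPM. None was 2-fold apart between the pups, which is near the 1.99% of all genes past the count minimum.

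Among the VEGF receptors Kdr was at 6.77 and 6.34 TPM and Flt1 at 5.78 and 5.28 TPM, whereas Flt4, of lymphatic endothelium, was at 0.89 and 0.94 TPM. Of the receptors most like the PDGF receptors, Csf1r, carried by macrophages, was at 14.9 TPM in pup 1 and 31.9 TPM in pup 2, 2.30-fold higher after TMM scaling. Kit was at 2.56 and 2.75 TPM on 337 counts in each pup, and Flt3 had 7 and 0 counts.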
